A study of Mus musculus with 6 samples.

Results

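The genes described here are 9 receptors of the innate immune system, the myeloid C-type lectins Clec4d, Clec4e, Clec4n, Clec7a, Clec10a, Mgl2, Mrc1 and Cd209a and the collectin receptor Colec12. They were measured by all probe sets whose platform annotation named one of these genes and no other, which gave 11 of the 22690 probe sets on the array and 9 of 12393 genes. The genes were chosen as a family from among genes whose signals on these 6 arrays were already known, so their values are given as a description and carry no test of their own. RNA came from skin of C57BL/6 mice with a subcutaneous pump that delivered its content for 7 days, and was hybridised to 6 single-colour Affymetrix arrays. Skin at the pump outlet was taken from 1 mouse given IL-13, 1 given TSLP, 2 given TGF-beta (mouse 1 and mouse 2) and 1 given PBS (PBS local), and 1 further piece of PBS skin came from the abdomen, away from the outlet (PBS distal). All 6 arrays therefore come from animals that carried a pump, and the labels do not state cytokine doses or whether both PBS pieces came from the same animal.

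C-type lectin receptors sense sugars and lipids on microbes and on damaged cells. Clec4d, Clec4e (Mincle), Clec4n (Dectin-2) and Clec7a (Dectin-1) activate the kinase Syk, through the adaptor Fcer1g for Clec4e and Clec4n and through a tyrosine motif of its own for Clec7a, and Card9 carries the signal on to NF-kappaB. Mrc1 (the mannose receptor), Clec10a and Mgl2 (galactose-type lectins, CD301) mainly take up glycosylated ligands and are well known from macrophages and dendritic cells exposed to IL-4 or IL-13, while Colec12 is a membrane collectin with scavenger receptor activity that is also found on vascular cells.

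Array medians lay between 160.2 and 171 signal units. Epidermal markers of the labelled tissue were present, with 8 of 8 keratinocyte genes at or above 165 signal units (the median of all values, used here as the limit for dim probe sets) on at least 1 array, and 8 of 8 skeletal muscle genes and 15 of 15 macrophage genes met the same limit. Hair follicle genes had a summed signal of 2820.2 under IL-13, 579 under TSLP, 669 and 38609.5 in TGF-beta mice 1 and 2, 460.2 in PBS local and 1819 in PBS distal skin. TGF-beta mouse 2 thus stood apart, so values for TGF-beta are given for each mouse, and the IL-13 array, which had the most 2-fold lectin calls against PBS local (3 genes), was also above TSLP and PBS local (the hair keratin Krt25 had a signal of 1049 under IL-13, against 12.3 in PBS local). Transcripts of exocrine pancreas enzymes differed widely too, with sums of 16806 under IL-13, 14278 under TSLP, 2057 and 11792 in TGF-beta mice 1 and 2, 4994 in PBS local and 906 in PBS distal skin. The part of hair cycle or of such transcripts in the values below was not tested.

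Differences are in log2(signal + 27.4), the added constant being the 25th percentile of all values, so that 1 is a doubling and changes of dim probe sets are understated. A gene is called at least 2-fold higher or lower when its difference passed 1 in size, for TGF-beta in both mice and in the same direction. Bulk skin RNA cannot tell more cells of a type from more RNA per cell. Apart from TGF-beta each group has 1 array, so no error can be given for its values, and the gap between both TGF-beta mice is the only measure of spread. Where that gap is used, it is taken for the same probe set. It rests on 1 pair of arrays and ran from 0.07 (Mrc1) to 0.63 (Clec7a). A step beyond a small gap may therefore only mean that both TGF-beta arrays happened to lie close together.

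Clec4n, Clec4d and Clec4e lie next to each other on chromosome 6 in RefSeq's order of protein-coding genes (assembly GRCm38.p6), and Mgl2 and Clec10a are neighbours on chromosome 11. Start-site windows of 250 bases before to 50 bases after the start were taken from RefSeq for 6 of the 9 genes, and 4 are printed because these genes gave the widest outlet-to-distal differences in either direction or the clearest separation of IL-13 and TSLP from TGF-beta. The windows are chr6:123261857-123262156 on the plus strand for Clec4d, chr6:123289822-123290121 on the minus strand for Clec4e, chr6:129472730-129473029 on the minus strand for Clec7a and chr11:70130107-70130406 on the plus strand for Mgl2, each written 5′ to 3′ along the gene with motif matches in capitals.
Clec4d: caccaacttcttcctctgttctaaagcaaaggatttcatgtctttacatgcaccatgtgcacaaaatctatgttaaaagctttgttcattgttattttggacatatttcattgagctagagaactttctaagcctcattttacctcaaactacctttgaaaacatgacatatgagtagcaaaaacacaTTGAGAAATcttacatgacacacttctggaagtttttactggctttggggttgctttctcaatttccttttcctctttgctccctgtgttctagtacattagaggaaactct
Clec4e: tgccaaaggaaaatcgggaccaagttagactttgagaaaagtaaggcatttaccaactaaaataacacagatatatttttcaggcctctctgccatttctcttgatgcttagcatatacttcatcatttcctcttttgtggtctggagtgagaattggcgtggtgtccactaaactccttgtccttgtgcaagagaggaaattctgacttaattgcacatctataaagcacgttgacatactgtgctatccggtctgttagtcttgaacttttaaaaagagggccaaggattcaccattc
Clec7a: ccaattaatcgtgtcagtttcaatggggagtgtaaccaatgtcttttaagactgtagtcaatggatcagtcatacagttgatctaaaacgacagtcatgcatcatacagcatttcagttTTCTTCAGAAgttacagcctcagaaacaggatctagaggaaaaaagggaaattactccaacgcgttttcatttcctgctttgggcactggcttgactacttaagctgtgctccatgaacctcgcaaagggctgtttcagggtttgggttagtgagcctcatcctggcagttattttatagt
Mgl2: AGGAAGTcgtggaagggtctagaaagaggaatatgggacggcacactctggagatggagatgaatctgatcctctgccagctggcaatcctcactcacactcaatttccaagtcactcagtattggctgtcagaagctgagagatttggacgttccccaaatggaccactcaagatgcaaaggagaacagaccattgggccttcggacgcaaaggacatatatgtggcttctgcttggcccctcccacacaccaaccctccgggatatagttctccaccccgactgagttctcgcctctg
Letters of 7 motifs were searched on both strands. TTNNGNAAT, bound by C/EBP-beta (NF-IL6), occurred in the Clec4d window, 62 bases before the start, and in 11.5% of all 32851 RefSeq windows. The STAT6 motif, TTC and GAA at the spacing that STAT6 prefers, occurred in the Clec7a window, 131 bases before the start, and in 6.95% of all windows. AGGAAGT, an ETS motif that PU.1 can bind, opened the Mgl2 window and was also present in the Mrc1 window, against 9.35% of all windows. None of the member windows searched held TTGCGCAA (C/EBP, in 0.183% of all windows), TTCNNNGAA (other STATs, 8.30%), the NF-kappaB motif (1.63%) or TGANTCA (AP-1, 7.81%). Clec4n, Clec10a and Colec12 were not searched. No matches of different motifs overlapped. A match describes letters in a window and not a bound site.

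Within the Clec4 cluster, Clec4d spread most. Clec4d, which forms a complex with Clec4e on myeloid cells, had a signal of 2073 under IL-13, 1789 under TSLP, 1522 and 1314 in TGF-beta mice 1 and 2, 582 in PBS local and 49.4 in PBS distal skin. All 4 cytokine arrays lay above both PBS arrays. Relative to PBS local, the difference was 1.79 under IL-13 (3.45-fold), 1.58 under TSLP (2.98-fold), and 1.35 and 1.14 in the TGF-beta mice (mean 1.24 ± 0.15, SD, n = 2). PBS local itself was 2.99 above PBS distal (7.93-fold), where the signal lay under the limit for dim probe sets. In the order of arrays, the steps from TGF-beta to PBS local (1.14) and from PBS local to PBS distal (2.99) exceeded the gap of 0.21 between both TGF-beta mice. The steps from IL-13 to TSLP (0.21) and from TSLP to TGF-beta mouse 1 (0.23) were about as large as that gap. The only probe set for Clec4d is of the s_at type, which can also bind related transcripts.

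Clec4e, the receptor for mycobacterial cord factor, was measured by a pair of probe sets. The brighter one had a signal of 528 under IL-13, 348 under TSLP, 209 and 130.5 in TGF-beta mice 1 and 2, 185 in PBS local and 17.9 in PBS distal skin. IL-13 and TSLP skin stood above all others, and the TGF-beta mice lay on either side of PBS local. Relative to PBS local, the difference was 1.39 under IL-13 and 0.82 under TSLP, and 0.15 and -0.43 in TGF-beta mice 1 and 2. The dimmer probe set stayed under the dim limit on every array, with 116, 61.3, 36.4 and 44.0 in the IL-13, TSLP and TGF-beta mouse 1 and mouse 2 arrays, 31.5 in PBS local and 3.83 in PBS distal skin. It gave 1.28 for IL-13 and 0.59 for TSLP against PBS local, the same order as the brighter one. In TGF-beta mouse 2 the signs parted, with 0.28 on the dimmer probe set against -0.43 on the brighter one.

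Clec4n, a receptor for fungal mannans, had a different order of arrays. Its brighter probe set gave 1784 under IL-13, 1743 under TSLP, 1697 and 2059 in TGF-beta mice 1 and 2, 1078 in PBS local and 321 in PBS distal skin. The 4 cytokine arrays were close together, and their steps (at most 0.20) were under the 0.27 between both TGF-beta mice. Each of them exceeded PBS local, by 0.71 under IL-13, 0.68 under TSLP, and 0.64 and 0.92 in the TGF-beta mice, all short of 2-fold. PBS local was 1.67 above PBS distal (3.17-fold). The second probe set for Clec4n gave nearly the same differences from PBS local, 0.69 under IL-13, 0.61 under TSLP, and 0.65 and 0.82 in the TGF-beta mice, and 1.94 for PBS local against PBS distal.

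**Figure D1:**
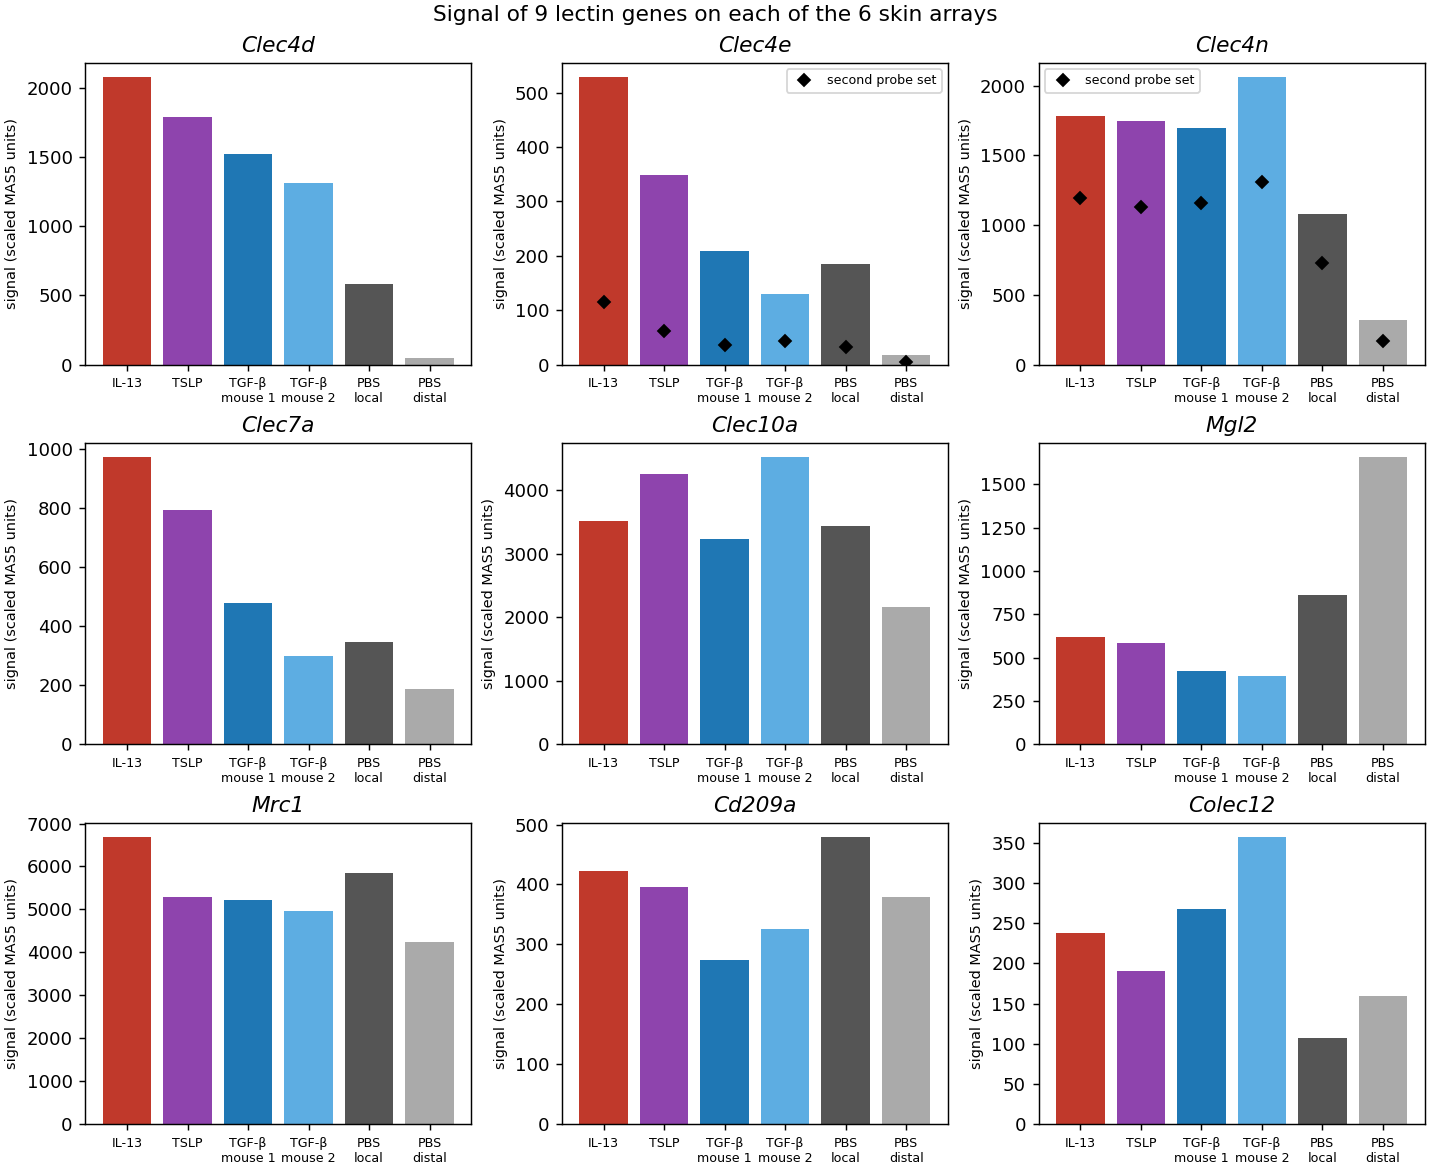
Signal (scaled MAS5 units, linear axis from 0) of each gene on the 6 arrays, with bars for the probe set that stands for the gene and diamonds for the second probe set of Clec4e and Clec4n. Clec4d runs from 2073 under IL-13 to 49.4 in PBS distal skin, whereas Mgl2 has its highest signal, 1658, in PBS distal skin.

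Clec7a, the beta-glucan receptor, separated IL-13 and TSLP from the remaining arrays. Its signal was 972 under IL-13 and 793 under TSLP, 477 and 298 in TGF-beta mice 1 and 2, 346 in PBS local and 187 in PBS distal skin. Relative to PBS local it was higher by 1.42 under IL-13 (2.68-fold) and by 1.13 under TSLP (2.19-fold). The TGF-beta mice gave 0.43 and -0.20, so PBS local lay between them. The step from TSLP down to TGF-beta mouse 1 (0.70) was the only one between neighbouring arrays that exceeded the gap of 0.63 between the TGF-beta mice.

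The neighbouring galactose-type lectins ran in opposite directions between outlet and distal skin. Clec10a (MGL1, CD301a) had a signal of 3511 under IL-13, 4254 under TSLP, 3236 and 4516 in TGF-beta mice 1 and 2, 3437 in PBS local and 2159 in PBS distal skin. Its 5 outlet arrays did not separate by treatment, since both TGF-beta mice were their lowest and highest arrays, and distal skin was below all of them. PBS local was 0.66 above PBS distal, beyond the 0.48 between both TGF-beta mice.

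Mgl2 (MGL2, CD301b), which marks a population of dermal dendritic cells and macrophages, had a signal of 617 under IL-13, 584 under TSLP, 422 and 393 in TGF-beta mice 1 and 2, 859.8 in PBS local and 1658 in PBS distal skin. Distal skin was the highest array, PBS local came next and all 4 cytokine arrays were below it. Relative to PBS local, the difference was -0.46 under IL-13, -0.54 under TSLP, and -0.98 and -1.08 in TGF-beta mice 1 and 2 (mean -1.03 ± 0.07, SD, n = 2). TGF-beta mouse 1 was just short of 2-fold, so Mgl2 was not counted as lower under TGF-beta, although mouse 2 alone passed. PBS local was itself 0.93 below PBS distal. The steps between distal, PBS local, the IL-13 and TSLP pair and the TGF-beta pair all exceeded the small gap of 0.10 between the TGF-beta mice, while IL-13 and TSLP differed by 0.08.

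Mrc1 and Cd209a varied little. Mrc1, the mannose receptor of macrophages, had a signal of 6690.3 under IL-13, 5299.8 under TSLP, 5222 and 4972 in TGF-beta mice 1 and 2, 5839 in PBS local and 4233 in PBS distal skin. Its whole range over the 6 arrays was 0.66, with IL-13 skin at the top and distal skin at the bottom. Relative to PBS local, Mrc1 differed by 0.20 under IL-13, -0.14 under TSLP, and -0.16 and -0.23 in the TGF-beta mice. Cd209a, a mouse homologue of the dendritic cell lectin DC-SIGN, had a signal of 422 under IL-13, 395 under TSLP, 274 and 326 in TGF-beta mice 1 and 2, 479 in PBS local and 379.8 in PBS distal skin. The TGF-beta mice were the lowest arrays, at -0.75 and -0.52 against PBS local, but no step between neighbouring arrays exceeded the 0.23 between the 2 mice.

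Colec12, the collectin receptor, was dim, and its order of arrays differed from that of each lectin. Its signal was 238 under IL-13, 190.5 under TSLP, 268 and 358 in TGF-beta mice 1 and 2, 107 in PBS local and 160.0 in PBS distal skin. Both TGF-beta mice were highest and PBS local was lowest, below distal skin. Relative to PBS local, the difference was 1.14 and 1.52 in TGF-beta mice 1 and 2 (mean 1.33 ± 0.27, SD, n = 2), 0.98 under IL-13 and 0.70 under TSLP. Relative to PBS distal, which was also under the dim limit, the TGF-beta mice were at 0.66 and 1.04 and IL-13 and TSLP at 0.50 and 0.22. PBS local was 0.48 below PBS distal on these dim signals, so each difference from PBS local is larger by that amount than the one from PBS distal.

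The comparison of IL-13 with PBS local asks which lectin genes differ in skin that received this type 2 cytokine. Clec4d, Clec7a and Clec4e were at least 2-fold higher under IL-13, and 0 of the 9 genes were 2-fold lower. Of all 7562 genes that passed the filter (at least 1 compared array at or above 165), 1.12% were called higher and 0.41% lower. The median difference was 0.71 over the 9 genes and -0.07 over all genes. With 1 array in each group this comparison has no test. With the median of all values as the added constant, Clec4e was at 0.98 and no longer called, while Colec12 passed the limit with the 10th percentile as the constant (1.11) and after quantile normalization (1.04).

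In the comparison of TSLP with PBS local, Clec4d and Clec7a were at least 2-fold higher under TSLP and 0 of the 9 genes were 2-fold lower. Over all 7614 genes, 0.998% were called higher and 0.447% lower. The 9 genes had a median of 0.68, against -0.01 over all genes. Here too there was 1 array in each group and no test, and Clec7a was at 0.91 with the median as the constant.

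In the comparison of TGF-beta with PBS local, Clec4d and Colec12 were at least 2-fold higher in both TGF-beta mice. Colec12 passed the filter only through the TGF-beta arrays, and with the median as the constant neither gene was called (means of 1.08 for Clec4d and 0.81 for Colec12). No member was 2-fold lower in both mice, Mgl2 coming closest. Over all 7741 genes, 0.181% were called higher and 0.155% lower by this rule. The medians were 0.12 over the 9 genes and -0.05 over all genes. In limma's moderated test over all 7741 genes, with Benjamini-Hochberg adjustment, 0.0% were called (lowest adjusted p = 0.864). The same test gave an unadjusted p under 0.05 for 355 of the 7741 genes, no more than that limit passes on average when no gene differs. That test rests on 1 residual degree of freedom, from the 2 TGF-beta mice.

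**Figure D2:**
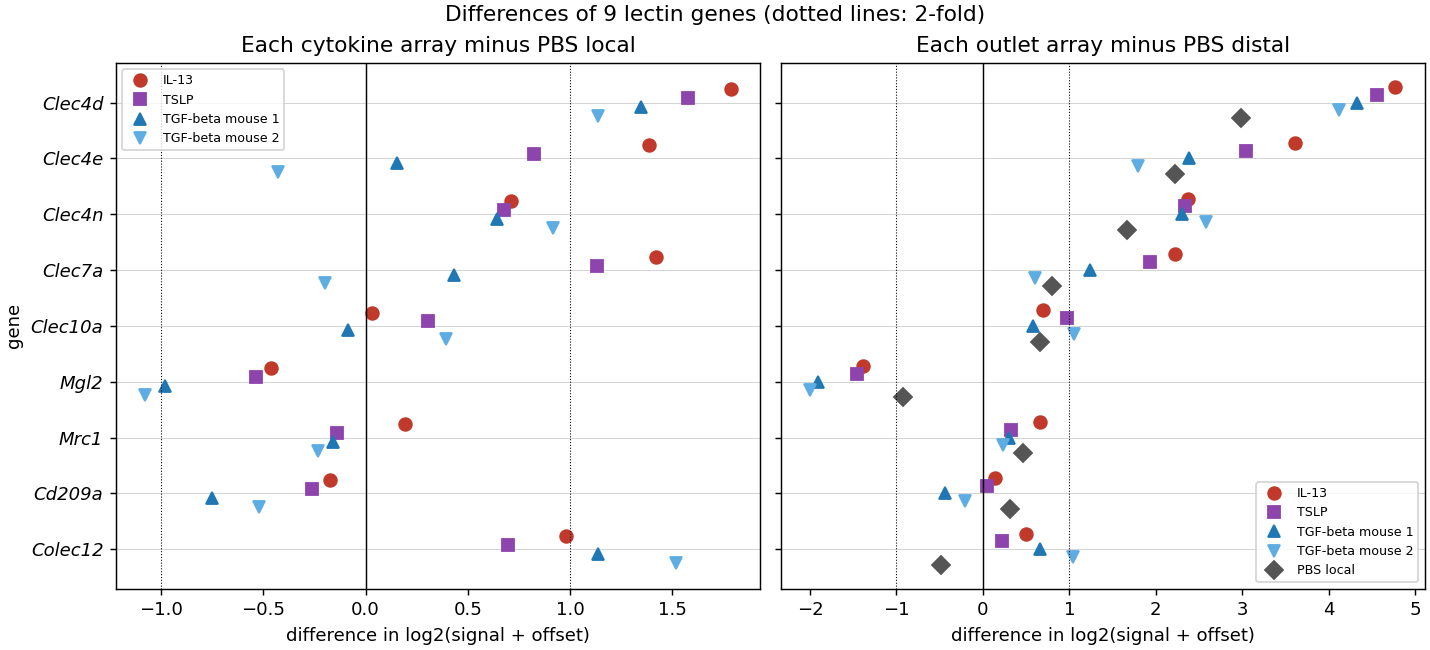
Differences in log2(signal + 27.4), with dotted lines at 2-fold and 1 point per array, of each cytokine array from PBS local (left) and of each outlet array from PBS distal (right). All 5 outlet arrays are above PBS distal for Clec4d, by 2.99 to 4.77, and below it for Mgl2, by -0.93 to -2.00.

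The comparison of PBS local with PBS distal holds the agent constant and changes the place on the body, the nearness of the pump and possibly the animal, which cannot be told apart. With 1 array on each side it has no test. Clec4d, Clec4e and Clec4n were at least 2-fold higher in PBS local, and 0 of the 8 members that passed the filter were 2-fold lower. Clec4d and Clec4e passed it only through PBS local, and Colec12 did not pass. Over all 7617 genes, 3.51% were called higher and 0.788% lower. The medians were 0.73 over the 8 genes and 0.01 over all genes. Clec7a was 0.80 higher in PBS local, Clec10a 0.66, Mrc1 0.46 and Cd209a 0.32, and only Mgl2, at -0.93, had a negative difference among the 8. With the median as the constant, Clec4e was at 0.94 and no longer called.

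Across all 6 arrays, PBS distal had the lowest value for 6 of the 9 genes (Clec4d, Clec4e, Clec4n, Clec7a, Clec10a and Mrc1), a pattern found in 24.9% of 7945 genes. It had the highest value for Mgl2, as for 26.8% of genes. All 4 cytokine arrays were above PBS local for Clec4d, Clec4n and Colec12 (15.3% of genes) and below it for Mgl2 and Cd209a (25.3% of genes). These 4 arrays share the single PBS local array, so an error in that array would move all of them together. IL-13 skin had the highest value of all arrays for Clec4d, Clec4e, Clec7a and Mrc1, against 9.05% of genes.

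**Figure D3:**
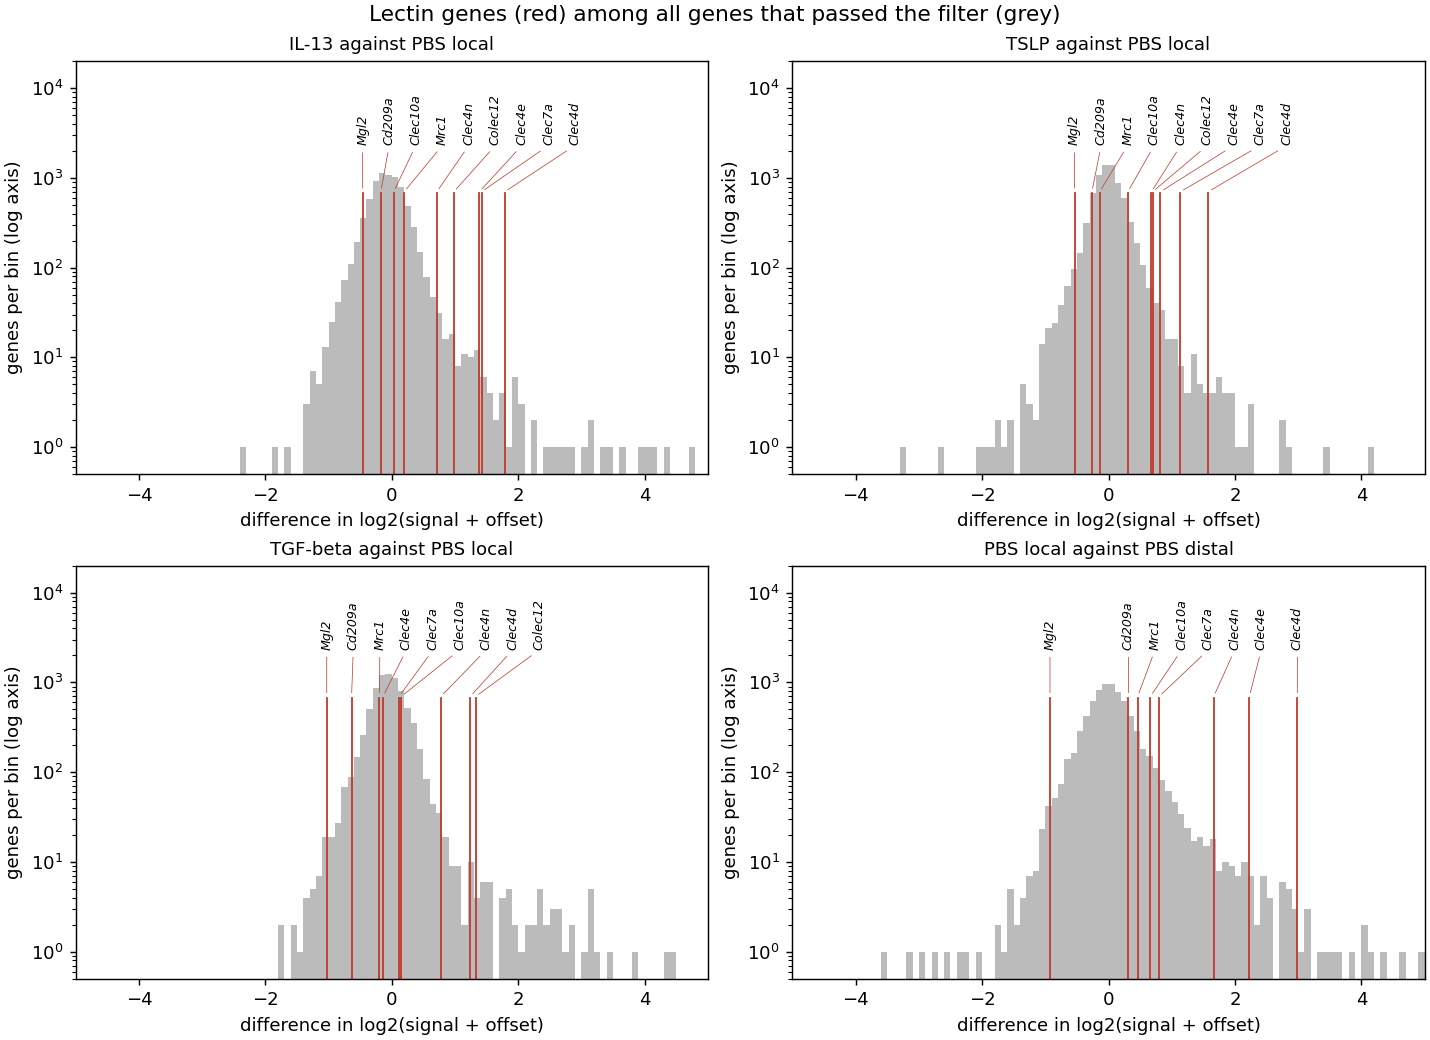
Histograms of the differences in log2(signal + 27.4) of all genes that passed the filter (grey, bins of 0.1, log axis, with any value past the axis counted in its last bin), with the lectin genes as red lines, for IL-13, TSLP and TGF-beta (mean of both mice) against PBS local and for PBS local against PBS distal. Clec4d lies in the upper tail of each panel, at 1.79, 1.58, 1.24 and 2.99.

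Between IL-13 or TSLP skin and TGF-beta skin, Clec4e and Clec7a had the widest differences. Clec4e was higher under IL-13 than in TGF-beta mice 1 and 2 by 1.23 and 1.81, and was the 1 member called among the 9, against 0.43% of 7674 genes higher and 0.0261% lower. Clec7a was higher under IL-13 by 0.99 and 1.62, so mouse 1 kept it just under the 2-fold limit. Under TSLP, Clec4e was higher than in the TGF-beta mice by 0.67 and 1.25 and Clec7a by 0.70 and 1.33, and 0 of the 9 genes were called, against 0.515% higher and 0.167% lower of 7763 genes. Clec4n differed little between them, at 0.07 and -0.20 for IL-13 and 0.04 and -0.24 for TSLP against the TGF-beta mice. Mgl2 was higher than in the TGF-beta mice by 0.52 and 0.62 under IL-13 and by 0.44 and 0.54 under TSLP, and Cd209a by 0.58 and 0.35 under IL-13 and by 0.49 and 0.26 under TSLP. Colec12 was lower, at -0.16 and -0.54 for IL-13 and at -0.44 and -0.82 for TSLP.

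IL-13 and TSLP skin differed little from each other in these receptors. Of the 9 genes 0 were called, against 0.556% higher and 0.82% lower of 7558 genes, and the median difference of IL-13 minus TSLP was 0.21 over the members and -0.06 over all genes. Clec4e had the widest difference among them (0.56), followed by Mrc1 (0.33) and Clec7a (0.29), and Clec10a was the 1 gene lower under IL-13 (-0.27).

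To describe which genes had profiles most like each receptor, log2 profiles over the 6 arrays were centred on their own means and compared by root mean square difference. Closest to Clec4d were the neutrophil and monocyte alarmin S100a9 (0.36), the protease inhibitor Timp1 (0.43) and the acute phase gene Saa3 (0.49), on a profile whose own root mean square was 1.65. Closest to Clec4e were the long pentraxin Ptx3 (0.19), the endotoxin co-receptor Cd14 (0.24) and Cd300lf (0.26), an inhibitory myeloid receptor. Vcam1, an adhesion molecule of activated endothelium (0.08), the protease inhibitor Slpi (0.14) and Steap1 (0.18) were closest to Clec4n. Clec7a was closest to the hyaluronan-binding protein gene Tnfaip6 (0.12), to Wnt2 (0.17) and to the prostacyclin synthase Ptgis (0.24).

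For Mgl2 the closest profiles were those of the neutrophil protease gene Prtn3 (0.14), which reached the dim limit only in PBS distal skin (362), the muscle calcium buffer Pvalb (0.15) and the lymphatic and macrophage receptor Lyve1 (0.17). Lyve1 had a signal of 1287 under IL-13, 1390.1 under TSLP, 1104 and 806 in TGF-beta mice 1 and 2, 2407 in PBS local and 3624 in PBS distal skin signal units, so distal skin was highest and PBS local next, as for Mgl2. For Clec10a the closest were Nlgn2, Unc93b1 and Atp13a2 (0.07, 0.07 and 0.10), on a flat profile of 0.34, and for Colec12 the transcription factor gene Sox4 (0.13), Gpc3 (0.21) and Gpnmb (0.23). Mrc1 and Cd209a spanned less than 1 over the arrays and were not compared in this way. Among the members themselves, Mrc1 and Cd209a were the closest pair (0.24) and Clec4d and Mgl2 the most distant (2.27).

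Genes of the signalling chain of these receptors gave no 2-fold call. Of 26 listed genes 20 were on the array, and 0 of the 15 or 16 that passed the filter were 2-fold higher or lower in any of the 7 comparisons. Over all genes the share called was between 0.0261% and 3.51% in either direction, so a list of this size may well give none. Members furthest from 0 were the adaptor Tyrobp under IL-13 (0.53), the kinase Prkcd under TSLP (0.41), the phosphatase Ptpn6 in TGF-beta mice 1 and 2 (-0.57 and -0.62), each against PBS local, and the inflammasome adaptor Pycard in PBS local against PBS distal (-0.81).

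Syk and Card9 signalling can switch on a further 18 listed genes, as can many other signals, and 8 of them were under the dim limit on every array, Tnf, Il10, Il12b and Il23a among them. Under IL-13, 7 of the 18 were at least 2-fold higher than in PBS local (median of all 18, with no filter, 0.66), with Cxcl2 at 3.05, Cxcl1 at 2.72, Il6 at 1.92 and Ptgs2 at 1.73. Of these 7, 6 passed the filter only through the IL-13 array and Il1b (1.38) alone was above the dim limit in PBS local as well. Under TSLP, 5 of 18 were higher without the filter (median 0.53), 3 of which passed it, each only through TSLP, namely Cxcl2 (2.80), Cxcl1 (2.78) and Il6 (2.29). Under TGF-beta, 1 of 18 was higher in both mice (median 0.06), namely Cxcl2 with 1.36 and 1.07, passing only through the TGF-beta arrays. Against the TGF-beta mice, 5 of 18 were higher under IL-13 and 5 of 18 under TSLP without the filter, Il1b among them with 1.86 and 1.65 under IL-13 and 1.30 and 1.09 under TSLP. Between IL-13 and TSLP 0 of 18 were 2-fold apart. PBS local was at least 2-fold above PBS distal in 5 of 18 without the filter (median 0.51), of which 1 passed it, Il1b (2.85), through PBS local only. The median over all genes that passed lay between -0.07 and 0.04 in these comparisons, and 0.181% to 3.51% of them were called higher.

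Other lectins and scavenger receptors gave few calls, as did all genes. Of 29 further C-type lectins 23 were on the array, and 0 of 12, 0 of 13 and 0 of 14 that passed were called under IL-13, TSLP and TGF-beta against PBS local, with medians of -0.17, -0.05 and -0.22. The shares called over all genes were 1.12% higher and 0.41% lower under IL-13, 0.998% and 0.447% under TSLP, and 0.181% and 0.155% under TGF-beta, so that 0 calls here is near the background and not a result about these lectins. The nearest to a call under TGF-beta was Cd209e, a homologue next to Cd209a, at -1.11 and -0.72. Cd207, the langerin of Langerhans cells, was higher under TSLP than in TGF-beta mice 1 and 2 by 1.03 and 1.22, the 1 call among 14 (0.515% of all genes were higher there). Cd93 was higher in PBS local than in PBS distal by 1.42, the 1 call among 12 (3.51% of all genes were higher there). Of the collectins and scavenger receptors, Scara3 was higher under TSLP than in PBS local by 1.02, the 1 call among 9, and Marco had 0.72 and 0.78 in the TGF-beta mice, with 0 of 9 called. Under IL-13 0 of 8 were called, with Scara3 at 0.52. Mbl1, Mbl2, Sftpa1, Sftpd and Stab2 were under the dim limit on every array.

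IL-4 and IL-13 induced macrophage genes gave 3 calls among 17 on the array under IL-13 against PBS local (Arg1 at 3.37, Ccl24 at 1.94 and Chil3 at 1.87), 1 of which passed the filter only through IL-13, and the median of all 17 without the filter was 0.13. Mrc1, Clec10a and Mgl2, which belong to the same textbook response, were at 0.20, 0.03 and -0.46 on that array, and Clec7a was at 1.42. Under TSLP 3 of 17 were higher without the filter (median 0.05), of which 2 passed it (Arg1 at 1.66 and Retnla at 1.13). Under TGF-beta 1 of 17 was lower without the filter (median -0.21), Chil3, just past 2-fold in mouse 1 and with -1.68 in mouse 2. In PBS local against PBS distal 1 of 17 was higher without the filter, Il4ra (1.06), and 1 was lower, Retnla (-3.18). The median there was 0.02 over all 17 and -0.19 over the 11 that passed the filter. Over all genes that passed, 1.12% were higher under IL-13, 0.998% higher under TSLP and 0.155% lower under TGF-beta against PBS local. In PBS local against PBS distal 3.51% were higher and 0.788% lower.

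Marker lists of the leukocytes that carry these receptors moved with some of them. The summed signal of 12 neutrophil genes was 12679 under IL-13, 8216 under TSLP, 8318 and 8266 in TGF-beta mice 1 and 2, 5926 in PBS local and 1250.3 in PBS distal skin. IL-13 was at the top and distal skin at the bottom, as for Clec4d and also for the monocyte and mast cell lists. TSLP was below both TGF-beta mice in the neutrophil sum, but above both for Clec4d. S100a8 alone gave 6777 of the sum under IL-13, and single genes had other orders. Lcn2 had a signal of 960.6 under IL-13, 1489.7 under TSLP, 721 and 1003 in TGF-beta mice 1 and 2, 856 in PBS local and 158 in PBS distal skin, so TSLP was highest. Ngp had 260.1 under IL-13, 261 under TSLP, 228 and 88.3 in the TGF-beta mice, 380.2 in PBS local and 62.4 in PBS distal skin, so PBS local was highest. In PBS local against PBS distal, 9 of the 12 genes were at least 2-fold higher without the filter (median 1.38, S100a9 at 2.99). Of these 9, 6 passed the filter, 5 of them only through PBS local, and over all genes that passed it 3.51% were higher. Under IL-13 against PBS local 3 of 12 were higher (S100a8 at 1.49, Mmp9 at 1.41 and S100a9 at 1.28), with a median of 0.23 and Ngp at -0.50, against 0 of 12 under TSLP and 0 of 12 in both TGF-beta mice. The shares higher over all genes that passed were 1.12% under IL-13, 0.998% under TSLP and 0.181% under TGF-beta, so 0 calls is near the background. Cxcr2, Ltf, Mmp8, Elane and Mpo were under the dim limit on every array. Macrophage genes summed to 69086 under IL-13, 61950 under TSLP, 69426 and 61971 in the TGF-beta mice, 58711 in PBS local and 44776 in PBS distal skin. Of 15, 1 was called under IL-13 against PBS local and in PBS local against PBS distal, in both cases Cd14 (1.32 and 1.60). Over all genes 1.12% and 3.51% were higher in these comparisons. Under IL-13 the 15 genes ran from -0.07 to 1.32 (median 0.20, against -0.07 over all genes). In PBS local against PBS distal all 15 were higher, by 0.11 to 1.60 (median 0.61, against 0.01 over all genes). The 7 monocyte genes summed to 27500 under IL-13, 23677 under TSLP, 23620 and 18097 in the TGF-beta mice, 19439 in PBS local and 16940 in PBS distal skin. Most of the IL-13 excess over PBS local came from Fn1 (8310 against 4736) and Chil3 (4175 against 1125). Both are also on the list of IL-4 and IL-13 macrophage genes. The part of these cells in the lectin values was not tested.

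Dendritic cell genes summed to between 23297 in PBS distal skin and 27462 in TGF-beta mouse 1. Under each cytokine against PBS local 0 were called, where 0.155% to 1.12% of all genes were called in either direction, so 0 calls is near the background. In PBS local against PBS distal 2 of 9 were higher, Irf8 (1.36) and Fscn1 (1.12), against 3.51% of all genes. Flt3, Zbtb46, Ccr7 and Xcr1 stayed under the dim limit on every array. Irf4, a transcription factor of the dendritic cells that carry Mgl2, was at -1.23 and -0.81 in TGF-beta mice 1 and 2 against PBS local, the lowest of the list. It passed the filter only through PBS local (237), with dim signals of 85.4 and 124 in the TGF-beta mice. Fscn1, an actin-bundling protein of mature dendritic cells, was the highest at 0.96 and 0.72. The median of the 9 dendritic cell genes that passed was -0.04 there. The 6 Langerhans cell genes summed to 2793 under IL-13, 3116 under TSLP, 2577 and 3266 in the TGF-beta mice, 2981 in PBS local and 4533 in PBS distal skin, so distal skin was the highest array here as for Mgl2. Epcam gave 2656 of the sum in distal skin, Cd1d1 1132 and Cd207 only 528. Tgfb1, Runx3 and Itgae were under the dim limit on every array. Mast cell genes were highest under IL-13 (4957) and lowest in PBS distal skin (1974), and T and NK cell genes were highest under TSLP (2448) and lowest in PBS distal skin (869). Fibroblast genes summed to between 58493 under TSLP and 82758 in TGF-beta mouse 1, endothelial and lymphatic genes to between 5397 in TGF-beta mouse 2 and 6989.8 in TGF-beta mouse 1, and keratinocyte genes to between 39517 under TSLP and 61196 in PBS distal skin. Their part in the lectin values was not tested either.

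**Figure D4:**
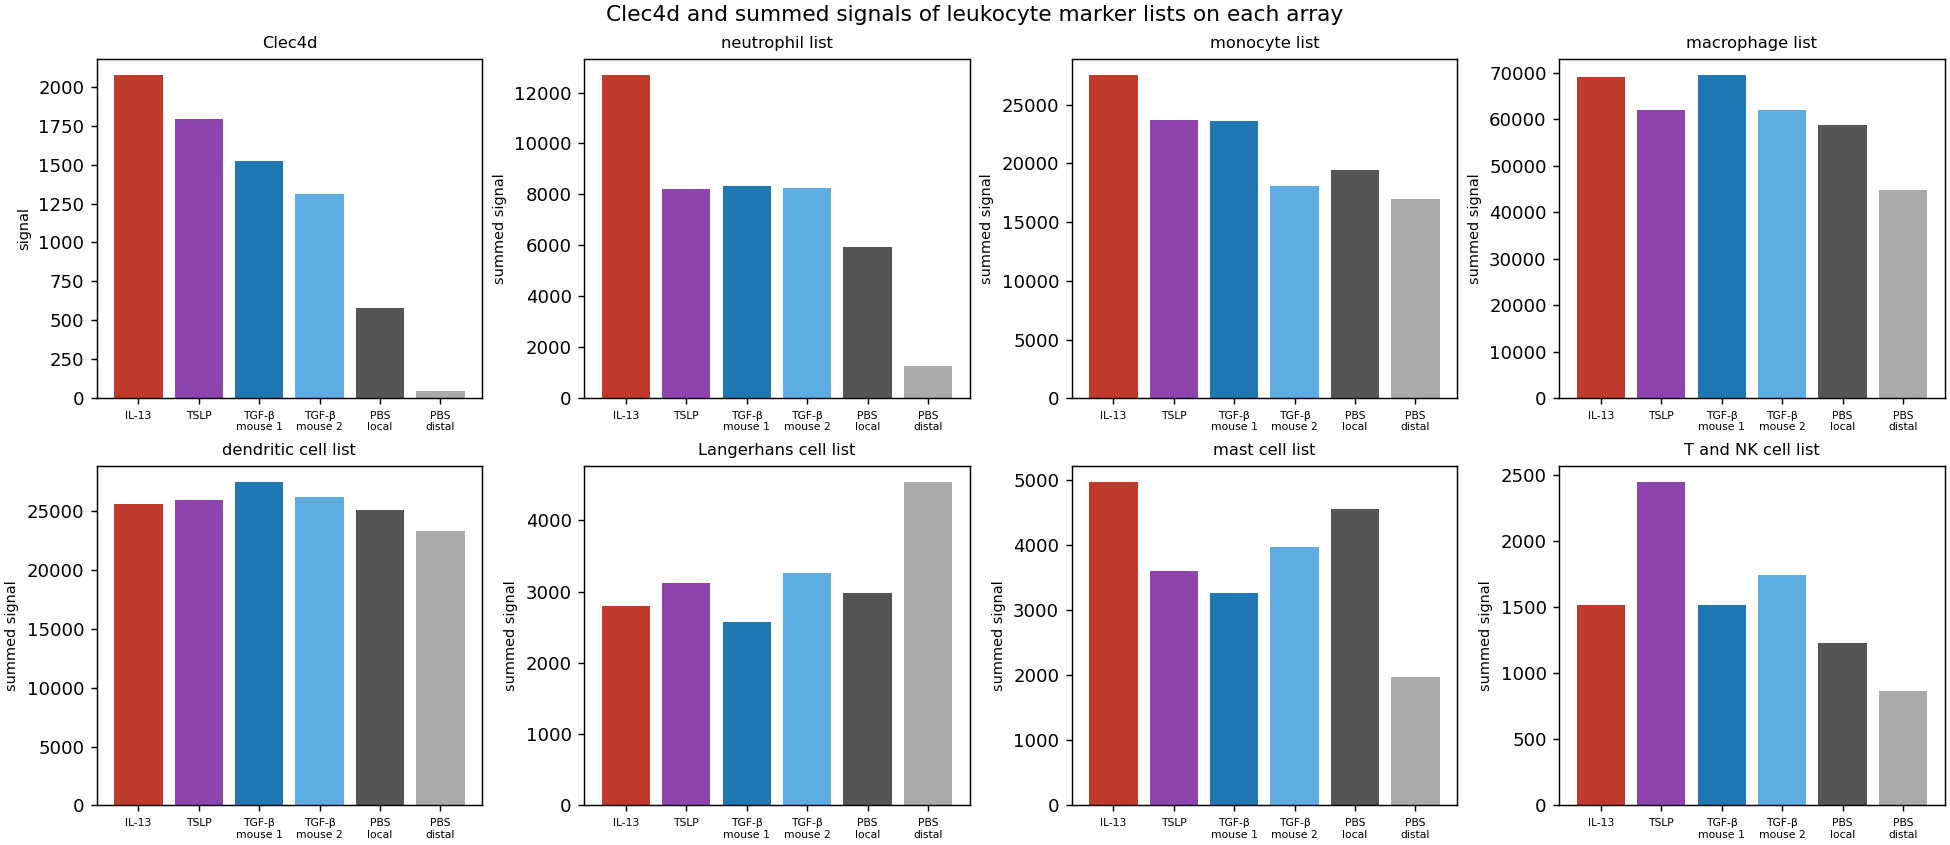
Signal of Clec4d and summed signals of 7 leukocyte marker lists on each array (scaled MAS5 units, linear axes from 0). The neutrophil list has its highest sum under IL-13 (12679) and its lowest in PBS distal skin (1250.3), as Clec4d does. So do the monocyte list (27500 and 16940) and the mast cell list (4957 and 1974). The Langerhans cell list is highest in PBS distal skin (4533, of which Epcam gave 2656).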

How the data were processed

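The deposited table holds linear signal intensities, 1 per probe set and array, which the authors computed with MAS5 (the submitters' processing notes name it, version not given in the sources used here). Trimmed means (2% off each end) of the 6 arrays lay between 500.16 and 500.2, so the arrays were already on a common scale. Each array was rescaled to the mean of these, and log2(signal + 27.4) was taken. Detection calls were not used here. Of the probe sets, 20380 name 1 gene, 691 several and 1555 are unnamed here, and 64 are AFFX controls. By gene number, 20351 were matched to RefSeq symbols (GRCm38.p6, used for names, gene order and start-site windows). Where a gene had several probe sets, the brightest by mean log2 value was used. Comparisons kept genes that reached 165 on 1 or more of the compared arrays.

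All 6 arrays were fitted in 5 groups with limma 3.58.1 (R 4.3.3, lmFit and eBayes with trend, 3.13 prior degrees of freedom), and p-values were adjusted by Benjamini-Hochberg at a threshold of 0.05. A run on simulated data was required only to return the median size of planted changes, which does not show the power of the test. The lone PBS local array is assumed to vary like the TGF-beta mice. Precision is limited by how few arrays there are. Members and the 18 lists (5 of pathways, 13 of cell types) were chosen with earlier results of these data known. Named from a list were genes past 2-fold, at most 4 by size, or else the largest difference, with text limited to the lists that bear on the lectins. The 3 most similar genes were named for members spanning at least 1 log2 unit. Alternatives changed the constant, the normalization, the filter, the choice of probe set, the trend and the TGF-beta mice included.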

Additional observations from a re-analysis of the deposited data

How the results depend on the processing

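Of 416 differences of single lectin genes recomputed under other settings, 8 changed sign, none of them past 2-fold originally, and 14 moved across the 2-fold limit. Filter settings change which genes are kept and not the difference of a gene, and averaging probe sets can change only Clec4e and Clec4n. The 416 therefore include values that could not move. Clec4d stayed at least 2-fold higher under IL-13 and TSLP against PBS local with the other constants and after quantile normalization. The remaining settings could not change these values. Limma called 0 genes for TGF-beta against PBS local under each setting, with a smallest adjusted p of 0.109 after quantile normalization and 0.827 to 0.899 otherwise, the main 0.864 included. No paired analysis was possible because only TGF-beta has more than 1 array. Leaving out a TGF-beta mouse leaves no residual degrees of freedom, so it gives sizes without a test.

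With the constant at the median, genes past 2-fold numbered 60 (116 in the main setting) for IL-13 and 60 (110) for TSLP against PBS local, 7 (26) for TGF-beta against PBS local, 16 (35) for IL-13 and 24 (53) for TSLP against TGF-beta, 45 (104) for IL-13 against TSLP, and 168 (327) for PBS local against PBS distal. Lectins past 2-fold were then 1 under TSLP, Clec7a being lost at 0.91, and 0 under TGF-beta, where Clec4d and Colec12 had means of 1.08 and 0.81, and 0 for IL-13 against TGF-beta (Clec4e at 1.06). Clec4e was also lost for IL-13 against PBS local (0.98, 1.39 in the main setting) and for PBS local against PBS distal (0.94, 2.23 in the main setting). With the constant at the 10th percentile (6.21), 45 genes were past 2-fold for TGF-beta against PBS local, 1 lectin was lower (Mgl2, -1.07), and 2 were higher under IL-13 than under TGF-beta, Clec7a (1.35) being added. Colec12 was gained under IL-13 against PBS local with that constant (1.11) and after quantile normalization (1.04). Without the filter, 176 genes were past 2-fold for IL-13 against PBS local and 169 for IL-13 against TSLP. With every compared array at or above the limit, the numbers were 65 for IL-13 and 14 for TGF-beta against PBS local, 20 for IL-13 and 31 for TSLP against TGF-beta, 62 for IL-13 against TSLP and 175 for PBS local against PBS distal. Fewer genes were tested there, and 1 lectin remained higher for TGF-beta against PBS local, 1 for PBS local against PBS distal, and 0 for IL-13 against TGF-beta, because Colec12, Clec4d or Clec4e had a dim array. Leaving out either TGF-beta mouse gave 72 to 255 genes for TGF-beta against PBS local, 96 to 182 for IL-13 and 96 to 320 for TSLP against TGF-beta. Lectins then numbered 0 to 1 lower for TGF-beta against PBS local (Mgl2, -1.08 without mouse 1), 1 to 2 higher for IL-13 against TGF-beta (Clec7a added, 1.62 without mouse 1) and 0 to 2 higher for TSLP against TGF-beta (Clec4e 1.25 and Clec7a 1.33 without mouse 1). The causes of the other shifts were not tested.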
